A study of Mus musculus with 2 samples.

Results

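Adult clusters 3 and 5 of the mouse oviduct epithelium were each compared with a larger adult cluster that carried the same kind of marker genes, and 99 genes differed at least 2-fold in the same direction in both comparisons, 14 higher and 85 lower, out of 27998 genes in the adult table. The comparisons were cluster 3 against cluster 1 and cluster 5 against cluster 0, by the authors' cluster numbers. From cluster 5, 7 cells were left out because they carried 10 or more UMI (unique molecular identifiers, each standing for 1 captured RNA molecule) of the smooth muscle genes Acta2, Tagln, Myh11, Des and Cnn1. These 7 cells held 37 to 134 such UMI and the 18 cells kept held 0 to 3. A gene also needed at least 20 UMI, pooled over cells, on the higher side of each comparison, which 1550 genes met. The clusters were made by the authors from the same expression values, and the 99 genes were chosen by their folds in these 2 comparisons. The adult folds below are therefore descriptions of the members and not tests.

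The series holds 2 single-cell libraries of oviduct epithelium from C57BL/6 mice, 1 from adults at estrus and 1 at postnatal day 4 (P4), made with the 10x Chromium 3' V2 kit from cells sorted by Epcam and CD45. The number of animals in each pool is not given in the sources used here. The study addresses whether epithelium near the ovary and near the uterus forms separate lineages, and no label says which cluster lies at which end. The P4 library was not used in choosing the genes.

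The oviduct epithelium holds multiciliated cells, whose cilia move fluid and eggs, and secretory cells, whose products coat the egg and feed the early embryo. Several of the genes that were higher in both comparisons belong to families known for handling peroxides, metals and electrophiles. Glutathione peroxidases reduce peroxides, glutathione transferases attach or remove glutathione, and metallothioneins bind zinc and copper. Others belong to the interferon and complement systems, by which epithelia mark or restrain microbes.

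Clusters 3 and 1 both carried genes of motile cilia, and clusters 5 and 0 carried secretory genes. The summed level of 15 multiciliated markers was 132 UMI per 10000 in cluster 3 and 185 in cluster 1, with all 15 detected in both. It was 1.67 in the 18 cells of cluster 5, where Foxj1, a master regulator of motile cilia, had 0 UMI, and 3.16 in cluster 0. The 8 secretory markers summed to 34.3 in cluster 3 and 11.8 in cluster 1, and to 91.4 in cluster 5 and 104 in cluster 0. Of the always-named genes, Ovgp1, the oviduct glycoprotein, stood at 24.6 UMI per 10000 in cluster 3 against 6.16 in cluster 1, and at 50.1 in cluster 5 against 58.7 in cluster 0. Foxj1 stood at 5.03 in cluster 3 and 8.09 in cluster 1. Epcam, an epithelial surface protein, stood at 4.30 in cluster 3 against 3.78 in cluster 1 and at 4.81 in cluster 5 against 6.81 in cluster 0. Pax8, a Müllerian transcription factor, had 7 UMI in cluster 3 and 4 in cluster 1, and 9 in cluster 5 and 35 in cluster 0. The totals behind these counts were 123177, 592420, 54051 and 512857 UMI. Per UMI, Pax8 was thus higher in cluster 3 than in cluster 1 and in cluster 5 than in cluster 0, on few counts. It fell short of the minimum of 20 UMI in clusters 3 and 5. Its relative Pax2 had at most 3 UMI in each of these clusters.

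A level is the pooled count of a gene in a group of cells per 10000 UMI of that group, and brackets after it hold an exact 95% Poisson interval. A fold adds 0.1 per 10000 to both levels, and the brackets after it hold an exact 95% interval of the ratio without that addition. Intervals reflect counting error alone. With 1 library per age and cells that are not replicates, no difference between clusters has a replicate check or a p-value here. Cluster 3 held 37 cells and 123177 UMI (median 3657 per cell) and cluster 1 held 183 cells and 592420 UMI (median 3165). Cluster 5 held 18 cells and 54051 UMI (median 1914.5) and cluster 0 held 130 cells and 512857 UMI (median 4107.5). A count of 3, used as a floor, equals 0.244 per 10000 in cluster 3, 0.0506 in cluster 1, 0.555 in cluster 5 and 0.0585 in cluster 0. The minimum of 20 UMI equals 1.62 per 10000 in cluster 3 and 3.70 in cluster 5, but 0.338 in cluster 1 and 0.390 in cluster 0, so genes of low level could enter the lower list and not the higher one. Mitochondrial genes took a median of 2.12% of UMI in cluster 3 and 4.40% in cluster 1, and 4.39% in cluster 5 and 4.0% in cluster 0. Both comparisons come from the same library.

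In cluster 3, 126 of 3385 genes with enough counts exceeded cluster 1 at least 2-fold (3.72%) and 555 were lower (16.4%). Against cluster 0, 39 of 2324 genes were higher in cluster 5 (1.68%) and 743 were lower (32.0%). Among the 1550 genes with enough counts in both comparisons, 82 were higher in cluster 3 (5.29%) and 30 in cluster 5 (1.94%), and the 14 shared genes were 0.903% of the 1550. Lower genes numbered 174 in cluster 3 (11.2%) and 425 in cluster 5 (27.4%), and the 85 shared ones were 5.48% of the 1550. The 14 higher genes made up 17.1% of the 82 and 46.7% of the 30. The 85 lower genes made up 48.9% of the 174 and 20% of the 425. A further 25 genes (1.61%) differed at least 2-fold in opposite directions. The median log2 fold over the 1550 genes was −0.27 in cluster 3 against 1 and −0.49 in cluster 5 against 0, beside 1.88 and 2.0 for the 14 and −1.42 and −2.29 for the 85.

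**Figure D1:**
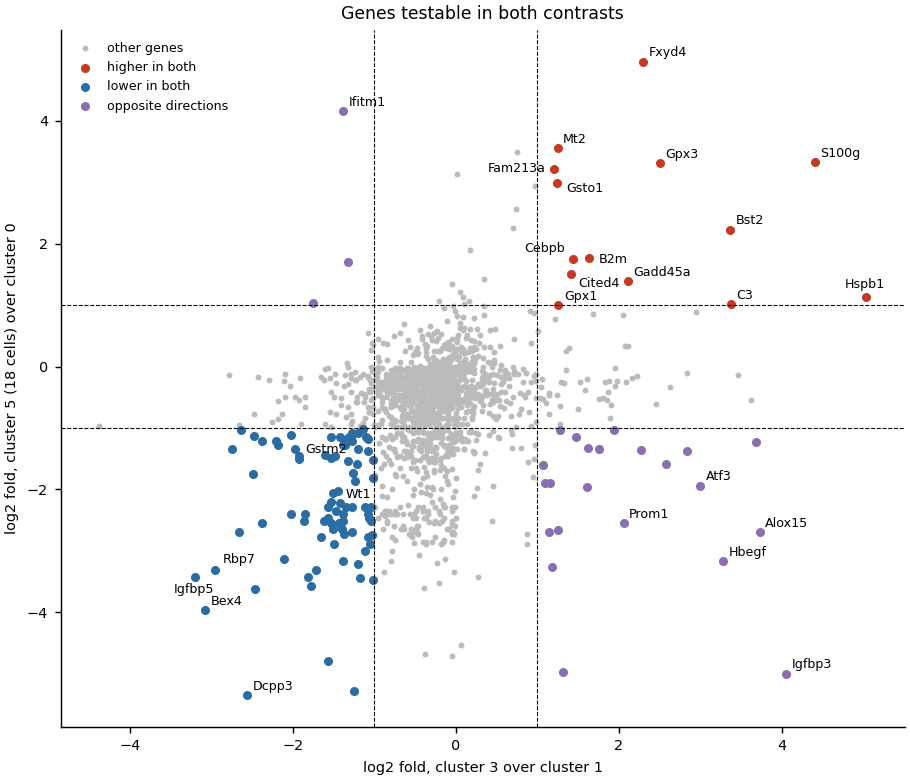
Each point is 1 of the 1550 genes with enough counts in both adult comparisons, with the log2 fold of cluster 3 over cluster 1 on the x axis and that of the 18 kept cluster 5 cells over cluster 0 on the y axis; dashed lines mark 2-fold. The 14 genes at the upper right and the 85 at the lower left are the shared genes, and 25 genes lie in the other corners.

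The windows before the transcription start of 5 members are shown first, because 1 of the 14 higher genes encodes the transcription factor C/EBP beta (Cebpb) and others belong to families whose known regulators recognise short DNA motifs. The 5 are members of high rank or with the C/EBP letters whose window lies outside the annotated gene. Each is 250 bases from RefSeq on GRCm38.p6, 5′ to 3′ on the gene's strand and ending at the base before the start. Capitals mark matches on either strand to the C/EBP letters TTGCNNAA, the metal response element letters TGCNCNC, or the interferon-stimulated response element letters GAAANNGAAA. They lie at chrX:162964600-162964849 (minus strand, S100g), chr8:71537473-71537722 (minus, Bst2), chr8:94172368-94172617 (plus, Mt2), chr17:57228137-57228386 (minus, C3) and chrX:136138746-136138995 (plus, Bex4). The first 4 genes were higher in both comparisons and Bex4 was lower in both.
S100g: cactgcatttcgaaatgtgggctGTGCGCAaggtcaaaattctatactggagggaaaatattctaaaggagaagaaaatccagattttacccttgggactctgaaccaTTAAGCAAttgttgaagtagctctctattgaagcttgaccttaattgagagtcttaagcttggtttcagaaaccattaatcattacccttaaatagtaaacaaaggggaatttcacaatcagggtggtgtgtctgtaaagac
Bst2: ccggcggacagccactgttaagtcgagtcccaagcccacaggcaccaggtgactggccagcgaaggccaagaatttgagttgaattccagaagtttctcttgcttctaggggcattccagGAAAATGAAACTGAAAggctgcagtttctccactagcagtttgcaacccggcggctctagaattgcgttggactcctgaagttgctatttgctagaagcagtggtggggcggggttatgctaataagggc
Mt2: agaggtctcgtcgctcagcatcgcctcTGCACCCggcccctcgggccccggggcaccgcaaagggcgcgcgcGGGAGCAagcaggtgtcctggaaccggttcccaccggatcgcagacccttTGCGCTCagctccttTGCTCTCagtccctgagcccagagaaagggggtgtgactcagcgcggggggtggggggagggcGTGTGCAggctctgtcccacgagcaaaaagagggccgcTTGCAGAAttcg
C3: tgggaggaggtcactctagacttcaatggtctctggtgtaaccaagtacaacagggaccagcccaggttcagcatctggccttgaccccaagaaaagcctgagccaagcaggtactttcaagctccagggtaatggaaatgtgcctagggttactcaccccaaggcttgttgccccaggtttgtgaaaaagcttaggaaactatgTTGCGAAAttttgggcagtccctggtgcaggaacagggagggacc
Bex4: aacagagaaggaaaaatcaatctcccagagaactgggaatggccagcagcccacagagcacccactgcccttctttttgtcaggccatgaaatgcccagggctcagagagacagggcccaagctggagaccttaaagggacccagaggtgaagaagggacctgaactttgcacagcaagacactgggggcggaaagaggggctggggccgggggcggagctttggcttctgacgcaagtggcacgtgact

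Distances here are from the RefSeq start, which for Bst2 and Mt2 differs from the start of the gene position given below. In S100g the C/EBP letters lie 142 to 135 bases before the start, in C3 45 to 38 bases and in Mt2 12 to 5 bases. Bst2 holds overlapping interferon-stimulated response element matches, at 130 to 121 and 124 to 115 bases before the start. Mt2 holds 5 metal response element matches, between 223 and 44 bases before the start, and S100g holds 1. The window of Bex4 holds none of the motifs searched.

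Of the 14 higher genes 13 had a window in the RefSeq table, and the C/EBP letters were in 4 of them (30.8%: C3, Gadd45a, Mt2 and S100g). They were in 8 of 60 windows of lower genes (13.3%), in 107 of 1212 windows of the genes measurable in both comparisons (8.83%) and in 10.8% of all 27025 windows. Interferon-stimulated response element letters were in 2 of 13 higher genes (15.4%: B2m and Bst2) and in 0 of 60 lower genes, beside 3.71% of the measurable genes. Metal response element letters, which are short and common, were in 4 of 13 higher genes (30.8%) and 30 of 60 lower genes (50%), beside 54.7%. The WT1 letters GCGTGGGNG were in 0 of 13 higher and 1 of 60 lower genes, beside 3.47%. These counts describe letters and not binding, and no test was made of them.

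The higher genes are described first, by role. Calcium and ion handling was represented by S100g and Fxyd4. S100g encodes calbindin-D9k, a small calcium-binding protein that responds to estrogen in the rodent uterus (chromosome X, 162961992 to 162964599, minus strand; positions here are on GRCm38). It stood at 9.17 UMI per 10000 (7.56 to 11) in cluster 3 and 0.338 (0.206 to 0.521) in cluster 1, a 21.2-fold difference (16.8 to 46.2). In the other comparison it stood at 14.8 (11.7 to 18.4) in cluster 5 and 1.38 (1.08 to 1.75) in cluster 0, a 10.0-fold difference (7.67 to 14.9). S100g was thus high in both small clusters, although 31 of its 80 cluster 5 UMI came from 1 cell. Fxyd4 encodes a regulator of the sodium pump (chromosome 6, 117933559 to 117937692, minus strand). It stood at 7.31 (5.88 to 8.98) in cluster 3 and 1.4 (1.12 to 1.74) in cluster 1 (4.93-fold, 3.83 to 7.11). In cluster 5 it stood at 22.4 (18.6 to 26.7), against 0.624 (0.427 to 0.881) in cluster 0 (31.1-fold, 24.1 to 54.8). A Fxyd4 UMI was present in 17 of 18 cluster 5 cells and 22 of 130 cluster 0 cells. With each cell thinned to 1000 UMI and shallower cells left out, it was present in 11 of 14 cluster 5 cells and 3 of 112 cluster 0 cells. As a guide to free RNA, the cilia gene Foxj1 had a UMI in 1.79% of the thinned cluster 0 cells (6.92% unthinned).

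Glutathione, redox and metal-binding genes gave 5 of the 14. Gpx3, the secreted glutathione peroxidase gene (chromosome 11, 54902453 to 54910377, plus strand), stood at 3.25 (2.32 to 4.42) in cluster 3 and 0.490 (0.328 to 0.703) in cluster 1 (5.68-fold, 4.01 to 11.1). It stood at 5.55 (3.74 to 7.92) in cluster 5 and 0.468 (0.300 to 0.696) in cluster 0 (9.95-fold, 6.70 to 21.2). The level of Gpx3 was thus alike in clusters 1 and 0, within counting error, and 1 cell held 19 of its 40 UMI in cluster 3. Gpx1, the intracellular glutathione peroxidase gene (chromosome 9, 108338903 to 108340343, plus strand), stood at 5.85 (4.57 to 7.36) in cluster 3 and 2.38 (2.0 to 2.81) in cluster 1. In cluster 5 Gpx1 stood at 9.25 (6.87 to 12.2), against 4.56 (4.0 to 5.19) in cluster 0, a fold of 2.01 (1.46 to 2.76) that just passes the threshold.

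Gsto1, an omega-class glutathione transferase gene (chromosome 19, 47854970 to 47864790, plus strand), stood at 12.1 (10.2 to 14.2) in cluster 3 and 5.06 (4.51 to 5.67) in cluster 1 (2.36-fold, 1.95 to 2.92). It stood at 13.5 (10.6 to 17.0) in cluster 5 and 1.62 (1.29 to 2.01) in cluster 0 (7.92-fold, 6.01 to 11.6). Fam213a, which encodes a peroxiredoxin-like protein, stood at 7.55 (6.09 to 9.25) in cluster 3 and 3.21 (2.77 to 3.70) in cluster 1, and at 6.85 (4.82 to 9.44) in cluster 5 and 0.643 (0.443 to 0.904) in cluster 0. The intervals of Gsto1 and Fam213a overlapped between clusters 3 and 5 but not between clusters 1 and 0. Mt2, a metallothionein gene (chromosome 8, 94172664 to 94173568, plus strand), stood at 32.8 (29.7 to 36.2) in cluster 3 and 13.7 (12.8 to 14.7) in cluster 1 (2.39-fold, 2.12 to 2.70). It stood at 13 (10.1 to 16.4) in cluster 5 and 1.01 (0.757 to 1.33) in cluster 0 (11.7-fold, 8.79 to 18.7). The level of Mt2 in cluster 5 was about that of cluster 1. Mt1, another metallothionein gene, is outside the naming rule. Its log2 folds were 0.70 in cluster 3 against 1 and 2.26 in cluster 5 against 0. Mt1 thus fell short of 2-fold in cluster 3 and was not a member.

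The antioxidant list did not move as a whole. A list gene is called measured in a comparison where it had at least 20 UMI on the higher side. Of 19 measured members, 4 were at least 2-fold higher in cluster 3 than in 1 (Gpx1, Gpx3, Gsto1 and Mgst3) and 4 were lower (Cat, Gpx8, Gsta4 and Gstm2), with a median log2 fold of −0.08. Of 20 measured in cluster 5 against 0, 3 were higher (Gpx1, Gpx3 and Gsto1) and 4 were lower (Cat, Gpx2, Gsta4 and Gstm2), with a median of −0.35. Peroxidase genes and glutathione transferase genes were thus found on both sides.

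Immune and interferon genes gave 3 higher members. Bst2 encodes tetherin, an interferon-induced membrane protein that holds budding viruses at the cell surface (chromosome 8, 71534255 to 71537456, minus strand). It stood at 13.5 (11.5 to 15.7) in cluster 3 and 1.22 (0.951 to 1.53) in cluster 1 (10.3-fold, 8.36 to 14.8), and at 10.7 (8.15 to 13.9) in cluster 5 and 2.20 (1.82 to 2.65) in cluster 0 (4.70-fold, 3.49 to 6.74). After thinning, 20 of 29 cluster 3 cells had a Bst2 UMI (69.0%; 83.8% of 37 unthinned) and 16 of 141 cluster 1 cells (11.3%; 22.4% unthinned). The thinned share was 78.6% of 14 cells in cluster 5 and 14.3% of 112 in cluster 0. B2m, the light chain gene of class I antigen-presenting molecules (chromosome 2, 122147686 to 122153083, plus strand), stood at 4.22 (3.15 to 5.54) in cluster 3 and 1.28 (1.01 to 1.61) in cluster 1 (3.13-fold, 2.27 to 4.74). It stood at 15.4 (12.2 to 19.0) in cluster 5 and 4.43 (3.87 to 5.04) in cluster 0 (3.41-fold, 2.66 to 4.48). The B2m level of cluster 3 was no higher than that of cluster 0.

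C3, the central complement gene (chromosome 17, 57203970 to 57228136, minus strand), stood at 3.41 (2.46 to 4.61) in cluster 3 and 0.236 (0.129 to 0.397) in cluster 1 (10.4-fold, 7.72 to 28.6). It stood at 7.22 (5.13 to 9.86) in cluster 5 and 3.53 (3.03 to 4.08) in cluster 0 (2.02-fold, 1.41 to 2.90). C3 was therefore close to the threshold in cluster 5, where 12 of its 39 UMI were in 1 cell. Among the list of antigen presentation and interferon genes, 5 of 10 measured members were higher in cluster 3 (B2m, Bst2, Ifi27l2a, Irf1 and Isg15) and Ifitm1 was lower. In cluster 5, 3 of 9 were higher (B2m, Bst2 and Ifitm1) and Cd74 was lower. Isg15, an interferon-induced ubiquitin-like gene named after its values were seen, missed membership with 16 UMI in cluster 5, of which 12 were in 1 cell.

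Immune cell markers were sparse in both small clusters. The 7 markers summed to 2.68 in cluster 3 and 0.473 in cluster 1. In cluster 5 they summed to 1.11 and in cluster 0 to 0.156. Ptprc (CD45), Cd3e, C1qa and Tyrobp had 0 UMI in clusters 3 and 5, and Cd68, Lyz2 and Cd52 were detected in both. Of 2 measured in cluster 3 against 1, Lyz2 was at least 2-fold higher and Cd52 lower. In cluster 5 against 0, 0 were measured. The highest sum in a single cell was 49.2 in cluster 3, 15.3 in cluster 1, 12 in cluster 5 and 8.13 in cluster 0. Their part in the levels of Bst2, B2m and C3 was not tested.

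**Figure D2:**
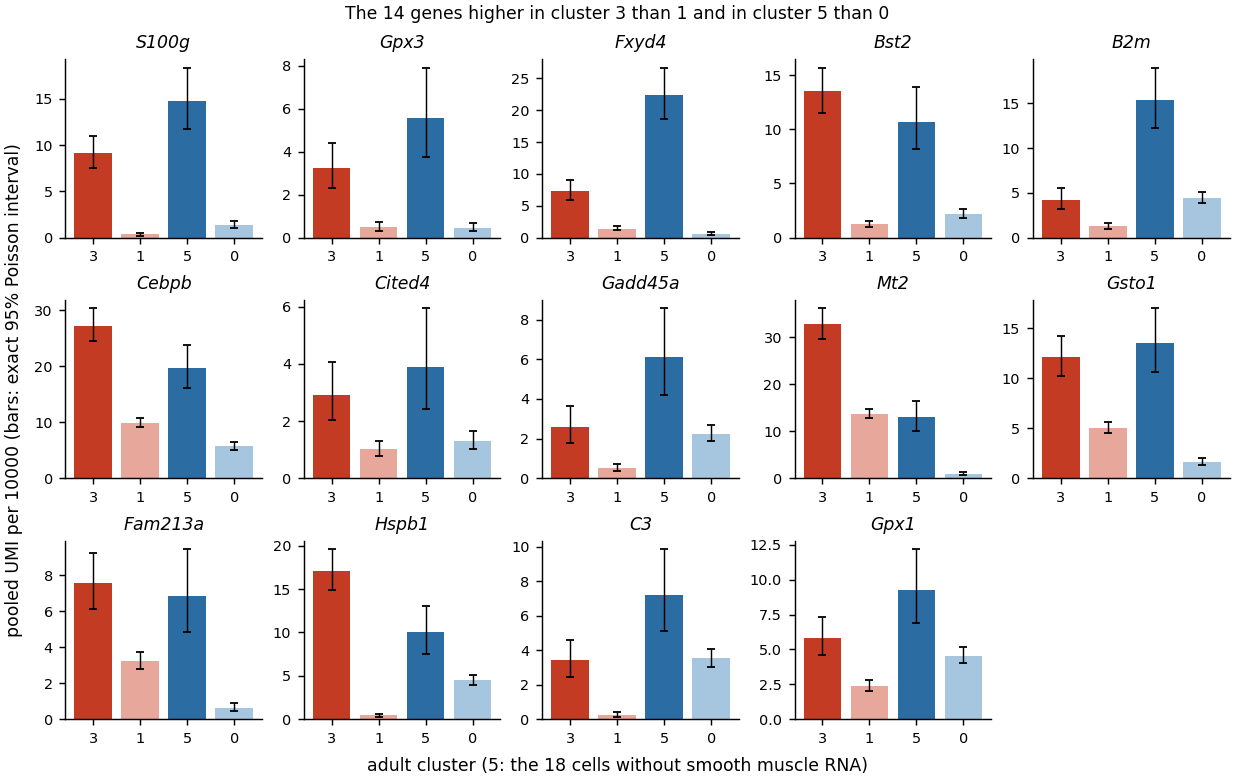
Bars give the pooled level of each of the 14 higher genes, in UMI per 10000, in adult clusters 3, 1, 5 (18 cells) and 0, with exact 95% Poisson intervals that cover counting error only. In every panel the bar of cluster 3 stands above that of cluster 1 and the bar of cluster 5 above that of cluster 0, as the choice of genes fixes; the levels in clusters 1 and 0 differ between genes.

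Transcription and stress genes made up the rest. Cebpb, which encodes C/EBP beta, a transcription factor of inflammation and epithelial differentiation (chromosome 2, 167688915 to 167690418, plus strand), stood at 27.2 (24.4 to 30.3) in cluster 3 and 9.94 (9.16 to 10.8) in cluster 1 (2.72-fold, 2.38 to 3.13). It stood at 19.6 (16.1 to 23.7) in cluster 5 and 5.77 (5.13 to 6.47) in cluster 0 (3.36-fold, 2.70 to 4.26). After thinning, a Cebpb UMI was present in 72.4% of cluster 3 cells (94.6% unthinned), against 51.1% of cluster 1 cells (70.5%). The thinned share was 64.3% in cluster 5 (94.4% unthinned), against 46.4% in cluster 0 (70.8%). Cited4, a transcriptional coactivator gene, stood at 2.92 in cluster 3 and 1.03 in cluster 1, and at 3.89 in cluster 5 and 1.31 in cluster 0, on 21 UMI in cluster 5. Gadd45a, a gene induced by DNA damage and growth arrest, stood at 2.60 in cluster 3 and 0.523 in cluster 1, and at 6.11 in cluster 5 and 2.26 in cluster 0.

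Hspb1, a small heat shock protein gene (chromosome 5, 135887919 to 135889563, plus strand), was the most uneven of the 14. It stood at 17.1 (14.9 to 19.6) in cluster 3 and 0.422 (0.273 to 0.623) in cluster 1 (33.0-fold, 26.7 to 64.2), but at 9.99 (7.51 to 13) in cluster 5 and 4.50 (3.94 to 5.12) in cluster 0 (2.19-fold, 1.62 to 2.99). None of the 20 genes on the dissociation stress list was among the 14, and other early-response genes were not listed. On the dissociation stress list, 13 of 18 measured genes exceeded cluster 1 at least 2-fold in cluster 3 and 0 were lower (median log2 fold 1.49). In cluster 5 against 0, 0 of 19 were higher and 8 were lower (median −0.55). The 2 comparisons thus went opposite ways for that list, and its part in the levels of Hspb1, Gadd45a and Cebpb was not tested.

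All 14 higher genes had ratio intervals above 1 in both comparisons, beside 29 of the 1550 genes (1.87%). The choice of genes largely fixes this, so it is not a check. In both clusters 3 and 5, 11 of the 14 were above the levels of both clusters 0 and 1, and B2m, C3 and Mt2 were not. The choice of genes favours this as well, and the share over all genes was not computed. Nearest to the threshold, the smaller of a gene's 2 folds was 2.005 for Gpx1, 2.016 for C3 and 2.192 for Hspb1, and just outside it was 1.963 for Isg20, 1.878 for Cox7a2l and 1.834 for Gsn. Among lower genes it was 2.011 for Ccnd1 and 2.024 for Smim10l1 and Zc3hav1, and just outside 1.995 for Ldhb, 1.993 for Calu and 1.990 for Tcn2. The cell holding most UMI of each gene was also left out of the higher side of each comparison, together with its total UMI. This can shrink a fold, or raise it where the gene's level in that cell is under the pooled level. Then 9 of the 14 kept their place, and C3, Cited4, Fam213a, Gpx1 and Hspb1 did not. With a minimum of 10 UMI in place of 20, 24 genes were higher in both, the 14 among them.

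Summed over the 14 genes, the level per cell had a median of 158 UMI per 10000 in cluster 3 (37.6 to 288) and 37.3 in cluster 1 (0 to 183). It had a median of 167 in cluster 5 (81.3 to 307) and 32.3 in cluster 0 (0 to 189). The ranges of each pair overlapped. The other secretory-type cluster, 4, had a median of 30 (31 cells), and the 7 cells left out of cluster 5 had 29.4. A cluster 3 cell had a UMI of a median of 9 of the 14 genes, against 4 in cluster 1, and a cluster 5 cell of 10, against 5.5 in cluster 0, although the median cluster 5 cell held fewer UMI than the median cluster 0 cell. The authors' clustering of both ages together divided cluster 3, with 19 cells in merged cluster 6 (median 4784 UMI) and 17 in merged cluster 0 (median 1086 UMI). The pooled level of the 14 genes was 164 in the 19 cells and 113 in the 17, against 40.4 in the 178 cluster 1 cells of merged cluster 0. The 18 cluster 5 cells fell into merged clusters 2 (7 cells, level 151) and 4 (11 cells, level 176), against 31.9 and 47.7 for the cluster 0 cells there. The higher level was present on both sides of this division in each cluster. These are parts of the same counts by which the 14 genes were chosen, so this is a description and not a check.

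**Figure D3:**
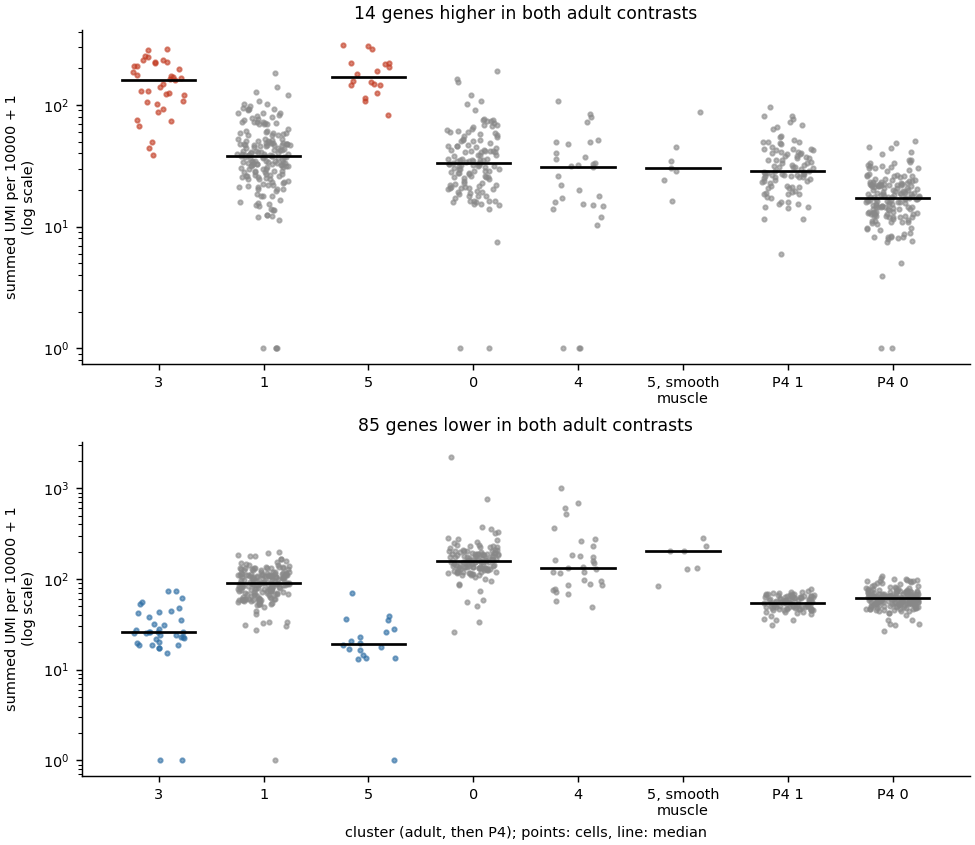
Points are cells, with the summed level of the 14 higher genes (top) and the 85 lower genes (bottom) in UMI per 10000 plus 1 on a log scale, by cluster; lines are medians. Cluster 3 and the 18 cluster 5 cells have medians of 158 and 167 for the higher genes, against 37.3 in cluster 1 and 32.3 in cluster 0, and medians of 24.8 and 18.2 for the lower genes, against 88.3 and 156.

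The 85 lower genes rested on few counts. In cluster 5, 35 of them had 0 UMI and 67 had 0 or 1, and for 30 the level in cluster 0 was at or under the cluster 5 floor. With levels under the floor raised to it, 24 of the 85 were at least 2-fold lower in cluster 5. For the others a 2-fold difference could not be shown at this depth. In cluster 3, 8 had 0 UMI. The ratio interval lay below 1 in both comparisons for 22 of the 85, beside 2.84% of the 1550 genes measurable in both, and the other 63 are counted as members by the rule without a difference beyond counting error in both. With a pseudocount of 0.5 in place of 0.1, 14 of the 85 remained. Without the cell holding most UMI of each gene on the higher side, 51 did. Of the 85, 24 fall under the naming rule and 4 are unnamed gene models. UMI counts given alone below come from clusters of unlike totals, so they do not show the size of a difference. The following paragraphs describe 21 of the 22. Of these, Qsox1, Nupr1, Dnajc7, Dhrs1, Rcn1, Gsr and Selenbp1 fall outside the naming rule and were named after their values were seen.

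Wt1, which encodes a zinc finger transcription factor of the urogenital tract (chromosome 2, 105126529 to 105173616, plus strand), had 17 UMI in 9 of 37 cluster 3 cells and 229 UMI in 105 of 183 cluster 1 cells. The levels were 1.38 (0.804 to 2.21) and 3.87 (3.38 to 4.40), 2.68-fold lower in cluster 3 (1.71 to 4.89). In cluster 5 it had 4 UMI, all in 1 of 18 cells, and in cluster 0 it had 197 UMI in 80 of 130 cells. The levels were 0.740 (0.202 to 1.89) in cluster 5 and 3.84 (3.32 to 4.42) in cluster 0, 4.69-fold lower in cluster 5 (2.0 to 19.2). Wt1 thus had the same level in clusters 1 and 0, within counting error, and was lower in both small clusters. After thinning, 6.90% of cluster 3 cells had a Wt1 UMI against 33.3% of cluster 1 cells, and 0 of 14 cluster 5 cells against 37.5% of cluster 0 cells. Of 5 measured regional transcription factor genes, Wt1, Foxa2 and Tshz2 were lower in cluster 3 and Sox17 was higher. Of 4 measured in cluster 5, Wt1 and Nr2f2 were lower.

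Genes of glutathione enzymes and of secreted proteins were among the lower members. Gstm2, a mu-class glutathione transferase gene (chromosome 3, 107981702 to 107986453, minus strand), stood at 0.974 in cluster 3 and 3.97 in cluster 1 (3.79-fold lower, 2.29 to 7.99), and at 8.70 in cluster 5 and 24.8 in cluster 0 (2.83-fold lower, 2.13 to 3.90). Gsta4, an alpha-class transferase gene, had 5 UMI in cluster 3 and 162 in cluster 1 (5.60-fold lower, 2.83 to 21), and 7 in cluster 5 and 235 in cluster 0 (3.36-fold lower, 1.69 to 8.90). Gstm2 and Gsta4 have close paralogs, with which reads may be shared. Gsr, the glutathione reductase gene, had 16 UMI in cluster 3 and 193 in cluster 1, and 2 in cluster 5 and 75 in cluster 0 (ratio 0.0301 to 0.946). Cat, the catalase gene, had 2 UMI in cluster 3 and 37 in cluster 1, and 0 in cluster 5 and 21 in cluster 0, with both intervals reaching 1. Sod3, the extracellular superoxide dismutase gene, had 2 UMI in cluster 3 and 61 in cluster 1, and 0 in cluster 5 and 40 in cluster 0, at least 1.41-fold lower in cluster 5.

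Lcn2, a lipocalin that binds bacterial siderophores, had 3 UMI in cluster 3 and 52 in cluster 1 (ratio 0.0554 to 0.857), and stood at 3.52 in cluster 5 and 15 in cluster 0 (4.18-fold lower, 2.72 to 7.13). Dcpp3, a secreted protein gene with near-identical copies, had 0 UMI in cluster 3 and 29 in cluster 1, and 1 UMI in cluster 5 and 593 in cluster 0. A single cluster 0 cell held 65.4% of the 593. Of 8 measured secreted products of the oviduct, 2 were higher in cluster 3 (C3 and Ovgp1) and 3 were lower (Dcpp3, Lcn2 and Ltf). Of 12 measured in cluster 5, 3 were higher (C3, Ltf and Serpina1e) and 6 were lower (Clu, Dcpp1, Dcpp2, Dcpp3, Lcn2 and Muc1). Ltf, the lactoferrin gene, thus went opposite ways, at 0.162 in cluster 3 and 0.557 in cluster 1, and at 22.8 in cluster 5 and 6.92 in cluster 0.

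Growth factor, retinoid and hedgehog genes followed. Igfbp5, which binds insulin-like growth factors (chromosome 1, 72857932 to 72874884, minus strand), had 1 UMI in cluster 3 and 93 in cluster 1 (ratio 0.00130 to 0.295), and 0 in cluster 5 and 50 in cluster 0, at least 1.76-fold lower in cluster 5. The IGF binding list was otherwise unlike between comparisons. In cluster 3, Igfbp3 and Igfbp7 were higher and Igfbp2 and Igfbp5 lower among 7 measured genes, whereas in cluster 5 all 6 measured genes were lower. Rbp7, a retinol-binding protein gene, had 0 UMI in clusters 3 and 5, against 40 in cluster 1 and 46 in cluster 0, of which 37 each came from 1 cell. Gas1, a membrane co-receptor gene of hedgehog signalling, had 0 UMI in clusters 3 and 5, against 27 in cluster 1 and 58 in cluster 0.

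Other lower members have varied roles. Kctd14, a BTB domain gene (chromosome 7, 97451323 to 97459557, plus strand), stood at 0.244 in cluster 3 and 1.15 in cluster 1 (ratio 0.0427 to 0.647), and at 2.78 in cluster 5 and 16.4 in cluster 0 (5.75-fold lower, 3.57 to 10.6). Of its 68 cluster 1 UMI, 30 were in 1 cell. Nupr1, a stress-induced nuclear protein gene, had 32 UMI in cluster 3 and 413 in cluster 1, and 4 in cluster 5 and 223 in cluster 0. Rcn1, a calcium-binding protein gene of the endoplasmic reticulum, had 4 UMI in cluster 3 and 59 in cluster 1, and 4 in cluster 5 and 278 in cluster 0. Qsox1, a sulfhydryl oxidase gene, had 4 UMI in cluster 3 and 63 in cluster 1, and 3 in cluster 5 and 131 in cluster 0. These genes are described because their intervals were below 1 in both comparisons, so those intervals are part of the choice and not a check.

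The cochaperone gene Dnajc7 stood at 3.82 in cluster 3 and 10.1 in cluster 1 (2.59-fold lower, 1.96 to 3.63), and had 0 UMI in cluster 5 and 41 in cluster 0. Selenbp1, a selenium-binding protein gene, had 17 UMI in cluster 3 and 173 in cluster 1, and 1 in cluster 5 and 93 in cluster 0. Enho, which encodes the peptide adropin, had 2 UMI in cluster 3 and 49 in cluster 1, and 1 in cluster 5 and 152 in cluster 0. Pgp, a phosphatase gene, had 1 UMI in cluster 3 and 31 in cluster 1, and 0 in cluster 5 and 56 in cluster 0. The LIM domain gene Csrp2 had 4 UMI in cluster 3 and 77 in cluster 1, and 0 in cluster 5 and 46 in cluster 0. Dhrs1, a dehydrogenase gene, had 2 UMI in cluster 3 and 39 in cluster 1, and 1 in cluster 5 and 62 in cluster 0. These counts are small in clusters 3 and 5, and each interval is below 1 by the choice of genes described. Bex4 had 0 UMI in clusters 3 and 5, against 44 in cluster 1, of which 24 were in 1 cell, and 75 in cluster 0. It was at least 3.05-fold lower in cluster 3 and at least 2.63-fold lower in cluster 5.

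Named lower members with an interval reaching 1 in at least 1 comparison were Idh1, Sox3, Ghrh, Bet1, Sfrp2, Cat, Tsc22d3, Dkk3 and Acta2. Ghrh, the growth hormone-releasing hormone gene, stood at 1.38 in cluster 3 and 5.91 in cluster 1, and had 0 UMI in cluster 5 and 22 in cluster 0, a level under the cluster 5 floor. Dkk3, a secreted protein gene of the Dickkopf family, had 2 UMI in cluster 3 and 29 in cluster 1 (ratio 0.0384 to 1.31), and 1 UMI in cluster 5 and 154 in cluster 0 (ratio 0.00155 to 0.348). With the Wnt modulator gene Sfrp2, Dkk3 was 1 of 2 lower members among 7 measured Wnt genes in cluster 3, and in cluster 5 Lgr4 and Rspo1 were lower as well, 4 of 6. Acta2 was used to leave out cells of cluster 5, so its low count there follows in part from the rule. Igfbp5, Gas1 and Csrp2 were high in the 7 left-out cells, at 5.69, 6.72 and 7.76 UMI per 10000. With those cells kept, their log2 folds in cluster 5 against 0 were 1.5, 1.54 and 2.05. Bex4 stood at 0.517 in the left-out cells.

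**Figure D4:**
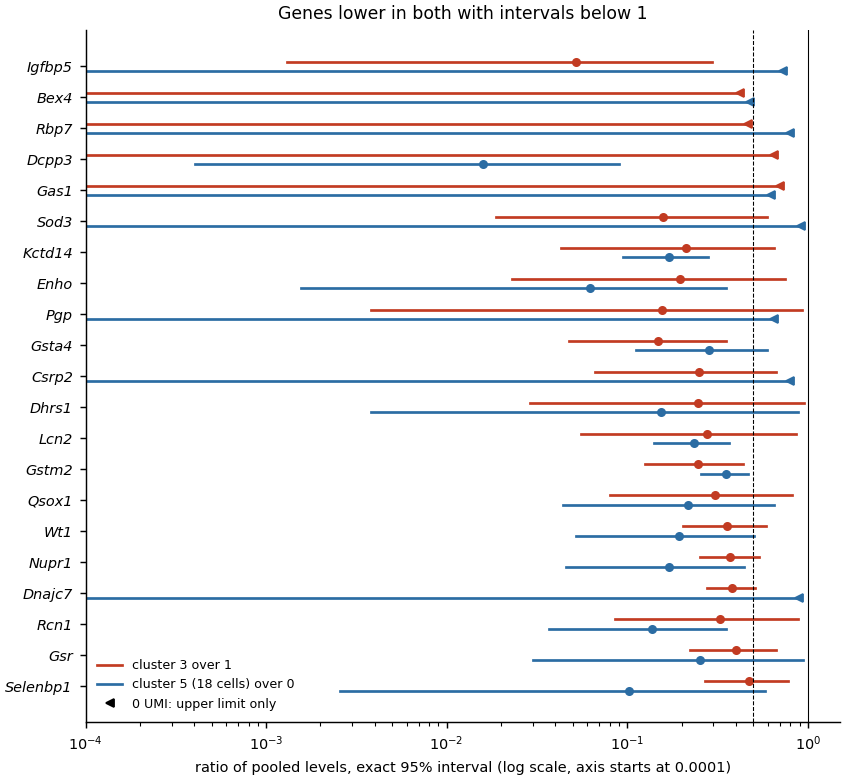
Points are ratios of pooled levels, with exact 95% intervals, for 21 of the 22 lower genes whose interval is below 1 in cluster 3 over 1 and in cluster 5 (18 cells) over 0, on a log axis; arrowheads mark genes with 0 UMI, for which there is an upper limit alone, and the dashed line marks 2-fold. Bex4, Rbp7 and Gas1 have 0 UMI in both small clusters, and the Gstm2 intervals are 0.125 to 0.437 in cluster 3 and 0.256 to 0.469 in cluster 5.

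Summed over the 85 genes, the median level per cell was 24.8 in cluster 3 and 88.3 in cluster 1, and 18.2 in cluster 5 and 156 in cluster 0. It was 130 in cluster 4 and 201 in the 7 left-out cells. In the 19 and 17 cluster 3 cells of merged clusters 6 and 0 the pooled level was 26.5 and 35.2. Of the 85, 77 were below the levels of both clusters 0 and 1 in both small clusters. The choice of genes favours this, and the share over all genes was not computed.

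Of the 1550 genes, 22 were higher in cluster 3 and lower in cluster 5 and 3 the reverse. The 5 with the largest smaller fold were Igfbp3, Hbegf, Alox15, Prom1 and Atf3. Igfbp3 stood at 3.25 in cluster 3 and 0.101 in cluster 1, and had 0 UMI in cluster 5 against 3.10 per 10000 in cluster 0. The growth factor gene Hbegf stood at 2.35 in cluster 3 and 0.152 in cluster 1, and had 0 UMI in cluster 5 against 41 in cluster 0. The lipoxygenase gene Alox15 stood at 2.35 in cluster 3 and 0.0844 in cluster 1, and at 0.185 in cluster 5 and 1.75 in cluster 0. Prom1, a membrane protein gene, stood at 1.87 in cluster 3 and 0.371 in cluster 1, and had 0 UMI in cluster 5 against 25 in cluster 0. Atf3, a stress-induced transcription factor gene, stood at 19.2 in cluster 3 and 2.31 in cluster 1, and at 1.85 in cluster 5 and 7.37 in cluster 0. The shift of cluster 3 and that of cluster 5 were therefore shared for a minority of the genes that differed.

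The P4 cells, which the rule did not use, carry 2 cluster numbers, and the 99 genes were examined in cluster 1 (95 cells, 662573 UMI) against cluster 0 (168 cells, 1460629 UMI). Of 7067 genes with at least 20 UMI on the higher side, 101 were at least 2-fold higher in P4 cluster 1 (1.43%) and 157 were lower (2.22%). Of the 13 higher members with enough counts, 4 were at least 2-fold higher in P4 cluster 1 (30.8%), namely Cebpb, Hspb1, Mt2 and S100g, and 0 were lower. Their median log2 fold was 0.72, beside −0.08 over all measured genes, and 9 of 13 were above 0, beside 37.9% of all measured genes. The ratio interval was above 1 for 8 of the 13 (61.5%), beside 8.29% of all measured genes, and below 1 for Fxyd4 and C3 (15.4%), beside 9.40%.

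Cebpb stood at 10.5 UMI per 10000 (9.74 to 11.3) in P4 cluster 1 and 4.01 (3.69 to 4.34) in P4 cluster 0, a 2.58-fold difference (2.35 to 2.93). Mt2 stood at 3.74 (3.29 to 4.24) in P4 cluster 1 and 1.57 (1.38 to 1.79) in P4 cluster 0 (2.29-fold, 1.98 to 2.86). Hspb1 stood at 5.98 (5.40 to 6.6) in P4 cluster 1 and 2.59 (2.33 to 2.86) in P4 cluster 0 (2.26-fold, 2.0 to 2.67). S100g, with 32 and 23 UMI, stood at 0.483 in P4 cluster 1 and 0.157 in P4 cluster 0 (2.26-fold, 1.74 to 5.49). The intervals of these genes exclude 1, but the genes are described because they passed the fold in this pair. The P4 clusters were also made by the authors from the same expression values, so the intervals are not a test. No label ties either P4 cluster to adult clusters 3 and 5. Gsto1, Fam213a, Cited4 and Gadd45a were higher in P4 cluster 1 by less than 2-fold, with log2 folds of 0.72, 0.92, 0.72 and 0.58. Bst2 and Gpx1 had log2 folds of −0.02 and −0.10 and B2m one of 0.18, each with an interval that includes 1. Fxyd4 went the other way, at 0.241 in P4 cluster 1 and 0.486 in P4 cluster 0, as did C3, at 0.574 and 0.979. Gpx3 had 5 and 7 UMI at P4, too few to compare. Of 16 measured antigen presentation and interferon genes and 19 antioxidant genes, 0 passed the fold in either direction at P4, where 1.43% of all measured genes were higher and 2.22% lower, so these counts are near the background.

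Of the 74 lower members with enough counts at P4, 5 were at least 2-fold lower in P4 cluster 1 (6.76%) and 0 were higher. Their median log2 fold was −0.24, beside −0.08 over all measured genes. Of the 74, 53 were below 0 and 21 above. Only 37.9% of all measured genes were above 0, so a fold below 0 was also the more common case among them. The interval was below 1 for 23 (31.1%), beside 9.40% of all measured genes, and above 1 for 3 (4.05%), beside 8.29%. Among those 3 were Tsc22d3 and Soat1, which is outside the naming rule. Wt1 stood at 0.679 (0.495 to 0.909) in P4 cluster 1 and 1.53 (1.33 to 1.74) in P4 cluster 0, 2.09-fold lower (ratio 0.315 to 0.615). Kctd14 stood at 0.589 in P4 cluster 1 and 1.46 in P4 cluster 0 (ratio 0.279 to 0.570). The other 3, named after their values were seen, were the transcription factor genes Gata6 (3 and 48 UMI) and Nr2f1 (5 and 43 UMI) and the gene model Gm12840 (15 and 150 UMI). Gstm2 was lower by less than 2-fold, at 2.32 in P4 cluster 1 and 4.05 in P4 cluster 0 (ratio 0.477 to 0.686).

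The P4 pair also differed in cilia genes, since 12 of 12 measured multiciliated markers were lower in P4 cluster 1, and 6 cells of P4 cluster 0 held at least 30 UMI per 10000 of them. Without those 6 cells, 5 higher members (the same 4 and Fam213a) and the same 5 lower members passed the fold. Per cell, the 14 higher genes summed to a median of 27.9 in P4 cluster 1 and 16.3 in P4 cluster 0, with overlapping ranges. The 85 lower genes summed to 53.8 in P4 cluster 1 and 60.2 in P4 cluster 0.

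**Figure D5:**
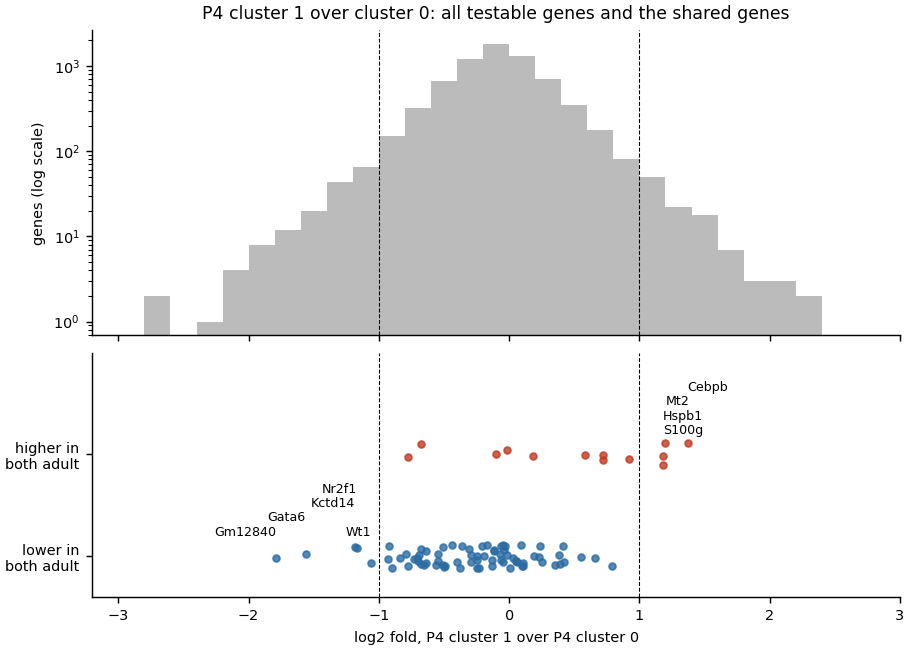
The upper panel is a histogram, on a log scale, of log2 folds of P4 cluster 1 over P4 cluster 0 for the 7067 measured genes; the lower panel shows the 13 higher and 74 lower shared genes measured there, with dashed lines at 2-fold. The higher genes past 2-fold are Cebpb, Hspb1, Mt2 and S100g, and the lower ones are Gata6, Gm12840, Kctd14, Nr2f1 and Wt1.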

How the data were processed

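Epithelial cells of adult and P4 mouse oviduct were profiled in 1 library each. What the authors deposited are raw UMI counts, not normalized, and cluster numbers for the cells. Seurat 2.3.4, the build mm10 and Cell Ranger, with no version, are named in the submitters' processing notes. Adult cells appear in 807 columns under 2 prefixes, with 406 distinct barcodes. The 401 repeated barcodes differed by less than sampling noise between prefixes (median squared difference over sum 0.140, against at least 1.04 for different barcodes), so each was counted once, from the first prefix. Adult and P4 tables share 0 barcodes. Counts were pooled per cluster and scaled to 10000, in Python 3.11.15 with numpy 2.4.6, pandas 2.3.3, scipy 1.17.1 and matplotlib 3.10.9. Folds used a pseudocount of 0.1, a minimum of 20 UMI on the higher side and a threshold of 2. Exact Poisson and conditional intervals have 95% confidence. Bounds use a floor of 3 counts over the group. No doublet caller was run, and no test was made, with 1 library per age.

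Named genes are the first 15 in each direction by the smaller fold (without ribosomal, mitochondrial and model genes), members of 30 gene lists, 6 fixed genes, the 5 leading opposite genes and those at the threshold. The members, lists and comparisons were chosen with earlier results of these data known. Printing the windows of Mt2 and C3 was chosen after the motif matches were seen. Positions come from GENCODE M21 on GRCm38 and sequences from RefSeq. A few genes that the naming rule or the lists give are not reported here. Alternatives covered the pseudocount, minimum count, pooling, depth, prefix and left-out cells.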

Additional observations from a re-analysis of the deposited data

How the results depend on the processing

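The number of genes higher in both adult comparisons was 14. It became 24 with a minimum of 10 UMI, 9 with 50 UMI and 194 with no minimum. With cells thinned to 1000 UMI it was 3 (Cebpb, Fxyd4 and Gsto1). Without the cell holding most UMI of each gene on the higher side it was 9. Under the other alternatives it was 12 to 15, with turnover: 9 of the 14 remained with smooth muscle cells kept (C3, Cited4, Gadd45a, Gpx1 and Hspb1 lost, 3 others gained), 11 without the 5% of cells with most UMI (C3, Cited4 and Fam213a lost), and 12 with a mean over cells (C3 and Gadd45a lost), with a pseudocount of 0.5 and with the columns of the other prefix (C3 and Gpx1 lost in both). The number of lower genes was 85, and it became 134 with a mean over cells (59 of them among the 85), 14 with a pseudocount of 0.5, 31 against a floor of 3 UMI, 178 with a minimum of 10 UMI, 17 with 50 UMI, 333 with no minimum, 42 with smooth muscle cells kept, 23 after thinning (3 among the 85) and 53 without the cell with most UMI. Under the other alternatives it was 69 to 90. At P4 the 4 of 13 higher members became 3 with a pseudocount of 0.5 and 3 of 10 with a minimum of 50 UMI (S100g lost in both), 5 with a mean over cells, and 2 of 5 after thinning (Cebpb and Mt2), where 2.99% of all measured genes were higher. The 5 lower members became 1 with a pseudocount of 0.5, 3 with a minimum of 50 UMI and 8 with totals that leave out mitochondrial and ribosomal protein genes. Thinning left 14 cluster 5 cells of 1000 UMI each, so fewer genes reach 20 UMI by construction; the cause of the other changes was not tested.

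Of 774 folds of named genes under an alternative, 15 changed sign. In cluster 3 against 1 after thinning, the log2 folds were 0.21 for Pgp, 0.59 for Cat and 0.88 for Dkk3. In cluster 5 against 0 with smooth muscle cells kept they were 1.5 for Igfbp5, 1.54 for Gas1, 2.05 for Csrp2 and 4.64 for Acta2, and with the other prefix 0.13 for Acta2. Against the floor, they were 0.02 for Idh1, 0.19 for Sox3 and Prom1, 0.37 for Ghrh and Bet1, 0.31 for Sfrp2 and 0.44 for Cat, all with 0 UMI in cluster 5. Depth limits the lower genes, of which 67 had 0 or 1 UMI in cluster 5. No paired analysis was possible because each age is 1 library and the clusters share no replicate numbers.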
